A study of Mus musculus with 12 samples.

Results

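The genes described here encode the SR proteins and the heterogeneous nuclear ribonucleoproteins (hnRNPs) of the mouse. They were measured in RNA bound by the m6A readers YTHDF1, YTHDF2 and YTHDF3 in cultured hippocampal neurons. The members were every protein-coding gene of the YTHDF1 result table whose symbol starts with Srsf or Hnrnp, which gave 31 of its 16716 genes, 11 of them Srsf genes and 20 Hnrnp genes. All 31 passed the filter on low counts, as did 16820 of the 55573 genes in the count table. The choice used names only, not a measured value. Neurons were taken from newborn C57BL/6 pups, with the sexes and the pups of a litter pooled, treated with Ara-C against dividing cells, and cultured for 14 days. No gene was altered in any group. Each of the 3 replicates was a pooled lysate, from which RNA was taken either directly (Input, n = 3) or after immunoprecipitation (RIP) with an antibody to endogenous YTHDF1 (n = 3), YTHDF2 (n = 3) or YTHDF3 (n = 3). A precipitate made with a control antibody was not analysed here, so RNA that sticks to beads cannot be told apart from RNA bound by a YTHDF protein.

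SR proteins bind exons of pre-mRNA through RNA recognition motifs and carry a tail rich in arginine and serine, through which they help the spliceosome choose splice sites. The hnRNPs are abundant nuclear proteins that coat nascent transcripts, often oppose SR proteins at splice sites, and also act in export, stability and translation of mRNA. Genes of both families are known for controlling their own dose through alternative exons that carry early stop codons, so that part of their RNA is removed by nonsense-mediated decay or kept in the nucleus. The mark m6A is a methyl group on adenosines of mRNA, is placed mostly in a GGAC context near stop codons and in 3′ untranslated regions, and is bound by the YTHDF proteins in the cytoplasm. Against this background, the question for each member was whether its RNA was enriched or depleted in each RIP relative to Input, and whether the RIPs differed.

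Library depth ran from 6020072 to 38909592 counted reads, and the members' counts ran from 78 (Srsf12) to 20234 (Hnrnpu) per library. The 31 genes took 0.323 ± 0.0446% of all counts in Input (mean ± SD, n = 3), 0.316 ± 0.0964% in YTHDF1 RIP, 0.482 ± 0.102% in YTHDF2 RIP and 0.431 ± 0.087% in YTHDF3 RIP. Of the counts of protein-coding genes they took 0.512 ± 0.0762% in Input and 0.34 ± 0.103% in YTHDF1 RIP. In YTHDF2 and YTHDF3 RIP that share was 0.668 ± 0.136% and 0.454 ± 0.0911%. The YTHDF3 mean thus lay above Input on the first base and below it on the second. Replicate 2 of YTHDF1 RIP stood apart for these genes by the size of its gap to the other replicates. It held the highest level of its group for 29 of the 31, but the other groups also had a leading library. YTHDF3 replicate 3 was highest for 28, and YTHDF2 replicate 2 and Input replicate 3 for 22 each. The median ratio of the highest to the lowest library was 2.26 in YTHDF1 RIP. It was 1.31 in Input, 1.33 in YTHDF2 RIP and 1.3 in YTHDF3 RIP. Over those of the genes tested with higher mean counts, members or not, the same ratio was 1.67 in YTHDF1 RIP. Results that rest on that library are therefore given with and without it. Markers of neurons summed to 2910 to 4730 CPM (counts scaled to the same library total) in Input, 4680 to 7790 in YTHDF1 RIP, 1920 to 3160 in YTHDF2 RIP and 3220 to 6420 in YTHDF3 RIP. Of the 9 neuron markers 2 (22.2%) were called lower in YTHDF2 RIP (median log2 fold change -0.84), near the 19.3% of all genes tested. In YTHDF1 and in YTHDF3 RIP 1 marker was called higher than Input, beside 27.5% and 16.7% of all genes. Between YTHDF1 and YTHDF2 RIP 3 markers (33.3%) were higher in YTHDF1, beside 11.4% of all genes. Over all libraries, markers of astrocytes summed to 1020 to 3470, those of the oligodendrocyte lineage to 63.9 to 1480, those of vascular cells and fibroblasts to 4.08 to 111, and those of microglia to 1.23 to 8.58. No marker was at 0 in all libraries of a group. The oligodendrocyte sum lay at 64.4 to 436 CPM in Input and at 392 to 1480 CPM in YTHDF1 RIP, and the part of either marker list in the results was not tested. Marker sums in a RIP also depend on which RNAs were precipitated, so they do not measure cell content. In bulk Input, fewer cells of a type and less RNA per cell cannot be told apart.

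**Figure D1:**
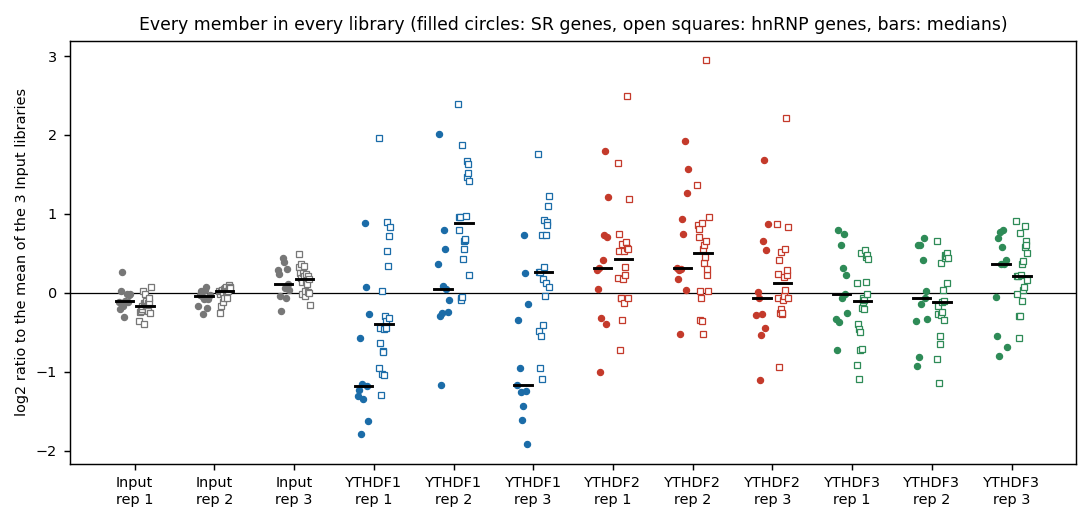
Log2 ratio of every SR gene (filled circles) and hnRNP gene (open squares) to the mean of the 3 Input libraries, on the vertical axis, for each of the 12 libraries on the horizontal axis, with bars for the medians of the 11 SR and the 20 hnRNP genes. The median over the 31 genes is 0.66 in YTHDF1 replicate 2 but -0.46 and 0.08 in YTHDF1 replicates 1 and 3.

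The motif GGACT, written as DNA, is the best-known sequence context of m6A, and its matches show where the readers' mark could lie in these mRNAs. The sense strand of 1 principal transcript per gene (GENCODE M21) was searched. Of the 31 members, 27 held at least 1 match (87.1%), against 92.2% of 13243 protein-coding genes tested. Within 200 bases either side of the end of the stop codon a match lay in only 5 members (16.1%), against 40.5% of the 11648 genes with a window of this length. The median density was 0.382 matches per kb for SR genes, 0.743 for hnRNP genes and 1.04 for all. A match is a description of the sequence and not a mapped m6A site. The 5 members with a match near the stop codon are printed first, as 25 bases of GRCm38 in transcript direction with the match in capitals.
Hnrnpa0, 138 bases past the stop codon, chr13:58127244-58127268, minus strand: ccctgaaggtGGACTcggccccaca
Hnrnpa1, 174 bases past it, chr15:103244405-103244429, plus strand: aaaaactccaGGACTgtatttgtga
Hnrnpa3, 187 bases past it, chr2:75665559-75665583, plus strand: ttcttgttcaGGACTgtcatagcca
Hnrnpl, in the coding sequence, chr7:28821413-28821437, plus strand: tgctggagtgGGACTcgaagagcga
Srsf7, reaching into the stop codon, chr17:80201540-80201564, minus strand: cagaaagaatGGACTgaagttctca

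For contrast, 3 members with differences in the RIPs that had their nearest match farther from the stop codon are shown next.
Srsf9, at position -403 from the end of the stop codon, chr5:115330562-115330586, plus strand: gagttccccaGGACTtacggaggtc
Srsf12, 740 bases past the stop codon, chr4:33232023-33232047, plus strand: aagccagcatGGACTgggctacgtg
Hnrnpul2, 705 bases past the stop codon, chr19:8832230-8832254, plus strand: gggctcttggGGACTgcagagcata
The principal transcript of Srsf5 held no match at all, as did those of Hnrnpa2b1, Hnrnpab and Hnrnpk, and that of Hnrnpm held 1, in its coding sequence. Spearman's rho between matches per kb and log2 fold change was 0.078 for YTHDF1, 0.101 for YTHDF2 and -0.014 for YTHDF3 over the 31 genes, and 0.016, 0.101 and 0.052 over the 13243. With the number of matches it was 0.318, -0.007 and 0.035 over the members and 0.449, 0.374 and 0.477 over the 13243. The genes share libraries, and these values are a description.

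The annotation of these genes differed from that of other genes in a feature the choice did not use. At least 1 transcript classed as a target of nonsense-mediated decay was annotated for 9 of the 11 SR genes (81.8%) and 10 of the 20 hnRNP genes (50%), against 27.8% of the protein-coding genes tested. Transcripts with a retained intron were annotated for 22 of the 31 (71%), against 57.4%. The counts used here sum all transcripts of a gene, so a change of isoform is not seen in them. Reads that map to several genes were counted for each of them, and 10 members shared over 10% of the 50-base words of their principal transcript with another gene. Hnrnpa3 shared 91%, Hnrnpf 49%, Hnrnpa1 46.4%, Hnrnpk 38.3%, Srsf3 31.5%, Hnrnpm 28.8%, Srsf5 27.8%, Hnrnph2 18.2%, Hnrnpc 13.4% and Srsf10 10%. For Hnrnpm the sharing gene was March2, whose locus overlaps it on the same strand, and for Srsf5 it was Gm12966. Values of these 10 genes are less certain than those of the others.

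In Input, levels per kb of exon ordered the members over a wide range. Hnrnpa1, which packages pre-mRNA and antagonises SR proteins at splice sites, was highest at 68.4 ± 21.3 CPM per kb (SD, n = 3), followed by Hnrnpab at 66.9 ± 15.9, an RNA carrier in neurites. Those 2 overlapped each other and lay apart from Hnrnpk, at 43.1 ± 4.66. The highest SR gene was Srsf5, at 21.2 ± 1.13 CPM per kb, and the lowest Srsf10, at 6.21 ± 0.974. Hnrnpr and Hnrnpll were lowest of all, at 3.48 ± 0.253 and 3.42 ± 0.285, and did not differ from each other beyond their spread. Of the 30 neighbouring pairs in this order, 25 had overlapping libraries. The order depends on the annotated exons, which sum to 22199 bases for Hnrnpr and 11677 for Hnrnpll. Without division by length, Hnrnpr was at 77.3 CPM and Hnrnpll at 40 in Input, and Hnrnph3 was lowest at 18.3.

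Relative to Input, 7 of the 20 hnRNP genes were higher in YTHDF1 RIP and 4 of the 11 SR genes lower, and YTHDF2 RIP held 4 hnRNP and 3 SR genes that were higher. The hnRNP side depended on the processing, since Hnrnpab, Hnrnpc and Hnrnpdl were called lower in YTHDF1 RIP with DESeq2 (-0.75, -0.56 and -0.61), with TMM over protein-coding genes, with a mean count of at least 50 and with library size alone. Without YTHDF1 replicate 2 the hnRNP median turned from 0.34 to -0.15, and with the length trend removed 2 hnRNP genes were higher and 2 lower. Calls against Input needed a 1.25-fold change or more, with an adjusted p no higher than 0.05 (edgeR's quasi-likelihood test over all genes with Benjamini-Hochberg adjustment). In YTHDF1 RIP, 8 members were higher and 4 lower, against 27.5% and 26.1% of all genes tested and 29.9% and 23.5% of the protein-coding ones. In YTHDF2 RIP, 7 were higher and 1 lower, against a background of 16.1% and 19.3% (protein-coding 18.0% and 17.0%). In YTHDF3 RIP, 3 were higher and 2 lower, against 16.7% and 23.2% (protein-coding 19.3% and 19.6%). The shares of members called higher, 25.8%, 22.6% and 9.68%, were near the background in YTHDF1 and YTHDF2 RIP and under it in YTHDF3 RIP. Those called lower, 12.9%, 3.23% and 6.45%, were below it in each RIP. These shares belong to the fit of the 12 libraries. Without YTHDF1 replicate 2, 12 members and 5097 of the 16820 genes were lower in YTHDF1 RIP. With YTHDF3 RIP and Input alone and a replicate block, 11 of the 31 members and 6144 of the 16820 genes were higher, and 7 and 5436 lower. In that fit the share of members called higher was near that of all genes. In the fit of the 12 libraries, 15 members were called in at least 1 RIP and 16 in no RIP. Of all genes 34.3%, and of protein-coding genes 34.8%, were called in no RIP. The 3 comparisons share the Input libraries.

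By family, 1 SR gene was higher and 4 lower in YTHDF1 RIP, with a median log2 fold change of -0.58 over the 11, against 0.02 over all genes. The corresponding counts were 3 and 1 in YTHDF2 RIP (median 0.18) and 3 and 1 in YTHDF3 RIP (median 0.09), beside medians of 0.02 and 0.05 over all genes. Of the 20 hnRNP genes, 7 were higher in YTHDF1 RIP (median 0.34) and 4 in YTHDF2 RIP (median 0.34), with the other 13 and 16 not called. In YTHDF3 RIP 1 hnRNP gene was lower and 19 were not called (median -0.03). As shares in YTHDF1 RIP, 36.4% of the SR genes were lower, beside 26.1% of all genes, and 9.09% higher, beside 27.5%. Of the hnRNP genes 35% were higher there and 0 lower. In YTHDF2 RIP 27.3% of the SR and 20% of the hnRNP genes were higher, beside 16.1%. In YTHDF3 RIP 27.3% of the SR genes were higher, beside 16.7%. A single SR gene made up 9.09% of its family, and the difference of these shares from those of all genes was not tested. Scaled by library size alone instead of by trimmed means, the median of all genes moved to -0.38 in YTHDF1 RIP and 0.38 in YTHDF3 RIP. The calls were then 5 higher and 11 lower in YTHDF1 RIP and 11 higher in YTHDF3 RIP, so the directions of the smaller changes are relative to the other genes. With that scaling, 33.4% of all calls in YTHDF1 RIP were higher in place of 51.3%, and 61.7% in YTHDF3 RIP in place of 41.9%.

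**Figure D2:**
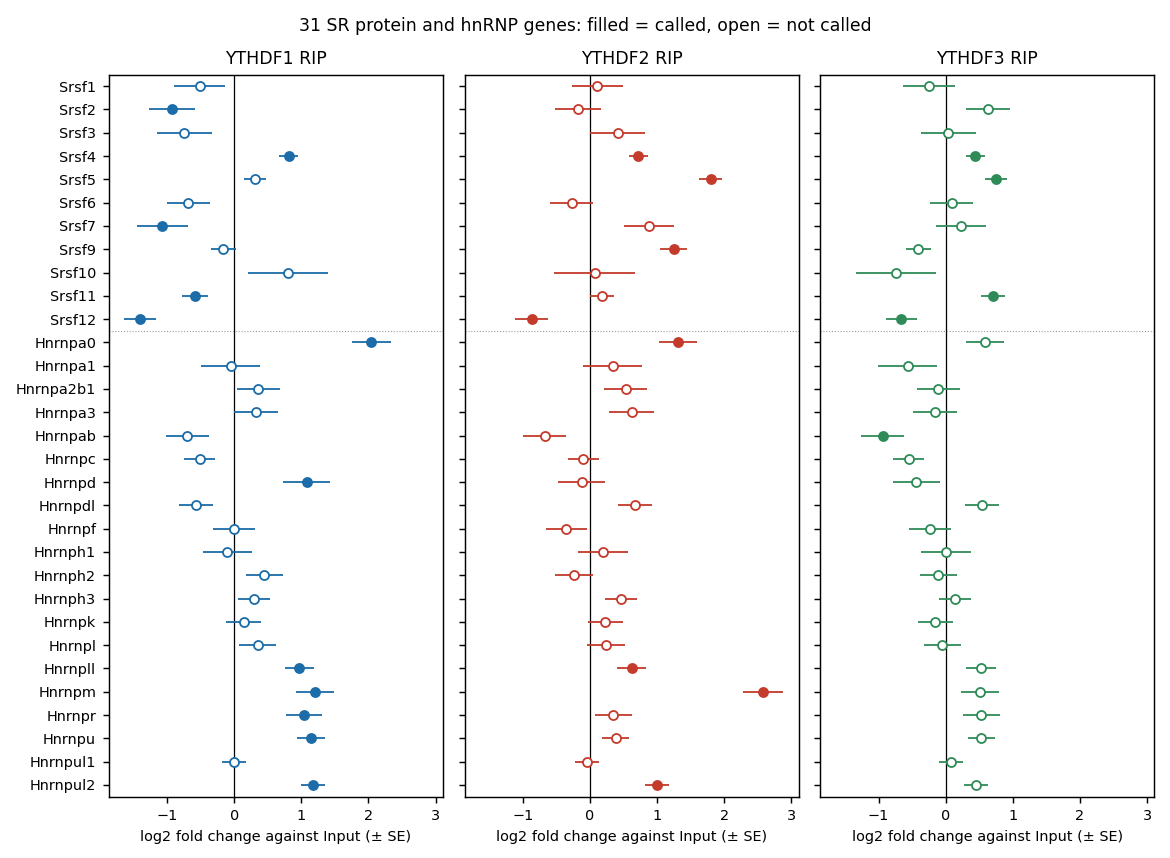
Log2 fold change against Input (horizontal axis, points, with bars for the standard error) of the 31 genes (vertical axis, SR genes above the dotted line and hnRNP genes below it) in YTHDF1, YTHDF2 and YTHDF3 RIP, each from 3 libraries against 3. Filled points were called: 12 genes in YTHDF1, 8 in YTHDF2 and 5 in YTHDF3 RIP.

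Among the hnRNP genes enriched in YTHDF1 RIP, Hnrnpa0 changed most. This gene of the A/B group, whose protein binds AU-rich elements of mRNAs, has a single exon at chr13:58125879-58128556 (GRCm38). It lay at 38.9, 50.5 and 62.4 CPM in Input replicates 1, 2 and 3, and in the same order at 193, 260 and 169 in YTHDF1 RIP, at 156, 129 and 90.9 in YTHDF2 RIP and at 54.2, 78.5 and 93.4 in YTHDF3 RIP. All YTHDF1 and YTHDF2 libraries stood above every Input library, while the YTHDF3 libraries overlapped Input. The log2 fold change was 2.04 ± 0.29 (SE) in YTHDF1 RIP (adjusted p = 0.000152), 1.31 ± 0.28 in YTHDF2 RIP (adjusted p = 0.0044) and 0.58 ± 0.28 in YTHDF3 RIP (adjusted p = 0.122). The calls of Hnrnpa0 in YTHDF1 and YTHDF2 RIP held under each of the 23 alternatives. The other genes of its group, Hnrnpa1, Hnrnpa2b1 and Hnrnpa3, were called in no RIP, with 0.34, 0.53 and 0.62 in YTHDF2 RIP.

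Hnrnpm, a splicing regulator of the M group at chr17:33646233-33686860, was enriched in YTHDF1 RIP and further in YTHDF2 RIP. Its levels were 68.6, 81.7 and 93.1 CPM in Input, 150, 257 and 150 in YTHDF1 RIP, 454, 624 and 375 in YTHDF2 RIP and 88.9, 112 and 145 in YTHDF3 RIP. YTHDF2 libraries lay above all others, and YTHDF1 libraries above Input. Its log2 fold change was 1.20 ± 0.28 in YTHDF1 RIP (adjusted p = 0.00414), 2.58 ± 0.30 in YTHDF2 RIP (adjusted p = 0.00028), the largest of any member in that RIP, and 0.51 ± 0.28 in YTHDF3 RIP (adjusted p = 0.172). March2, which shares part of its sequence, went the other way, with log2 fold changes of -1.12, -0.55 and -0.40 in the 3 RIPs. With the trend of fold change on exonic length removed, Hnrnpm was 0.62 in YTHDF1 RIP and no longer called, and 2.26 in YTHDF2 RIP.

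The U group holds scaffold proteins that bind RNA and chromatin. Hnrnpul2, at chr19:8820010-8834143, lay at 142, 140 and 121 CPM in Input, 240, 360 and 314 in YTHDF1 RIP, 306, 262 and 239 in YTHDF2 RIP and 180, 183 and 190 in YTHDF3 RIP. Every RIP library was above every Input library. The log2 fold changes were 1.18 ± 0.18 (adjusted p = 0.000295), 1.00 ± 0.18 (adjusted p = 0.00187) and 0.45 ± 0.18 (adjusted p = 0.067). Its relative Hnrnpu was called in YTHDF1 RIP at 1.15 ± 0.21 (adjusted p = 0.000768), with 323 to 357 CPM in Input and 558 to 973 in YTHDF1 RIP, and was not called in YTHDF2 (0.38) or YTHDF3 RIP (0.53). Hnrnpul1 was at 0.00, -0.05 and 0.08 and called nowhere. Once the length trend was removed Hnrnpu came to 0.20 in YTHDF1 RIP and was not called.

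The remaining hnRNP genes enriched in YTHDF1 RIP depended in part on replicate 2. Hnrnpd, which encodes the decay factor AUF1, lay at 117, 115 and 113 CPM in Input and at 117, 421 and 191 in YTHDF1 RIP, so that replicate 1 was level with Input. Its log2 fold change of 1.08 ± 0.35 (adjusted p = 0.0223) became 0.35 without YTHDF1 replicate 2 (adjusted p = 0.156), and the call was also lost without any Input library (adjusted p = 0.0521, 0.0592 and 0.0755). Hnrnpr, a carrier of mRNA in motor axons, was at 1.04 ± 0.27 (adjusted p = 0.00742) and at 0.55 without that replicate (adjusted p = 0.0281). Hnrnpll, a relative of Hnrnpl that controls exons in lymphocytes, was at 0.97 ± 0.22 (adjusted p = 0.00315) and at 0.56 without it (adjusted p = 0.00476). Removing the length trend turned Hnrnpr, whose exons span 22199 bases, to -0.57 (adjusted p = 0.141), and took Hnrnpll to 0.02. In YTHDF2 RIP Hnrnpll was called at 0.62 ± 0.22 (adjusted p = 0.0446), a call lost without any 1 of the Input, YTHDF2 or YTHDF3 libraries, with adjusted p from 0.0553 to 0.128.

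Of the 11 SR genes, 4 were lower in YTHDF1 RIP, 1 was higher and 6 were not called, and the number lower depended on replicate 2. Srsf12, a relative of Srsf10 that can repress splicing, at chr4:33208991-33233340, was at 37.9, 30.6 and 26.7 CPM in Input and at 9.02, 13.9 and 13.1 in YTHDF1 RIP. It lay at 15.7, 21.8 and 14.6 in YTHDF2 RIP and at 24.3, 17.8 and 18 in YTHDF3 RIP, so that every RIP library was below every Input library. The log2 fold change was -1.40 ± 0.24 in YTHDF1 RIP (adjusted p = 0.000551), -0.87 ± 0.24 in YTHDF2 RIP (adjusted p = 0.0149) and -0.66 ± 0.23 in YTHDF3 RIP (adjusted p = 0.041). Srsf12 was the sole member lower in all 3 RIPs, where 14.0% of all genes and 11.7% of protein-coding genes were. Its call in YTHDF1 RIP held under the 23 alternatives. That in YTHDF2 RIP was lost without Input replicate 1 or YTHDF2 replicate 1 or 3 (adjusted p 0.0583 to 0.0598). That in YTHDF3 RIP was lost without Input replicate 1 or 2, YTHDF1 replicate 3, YTHDF2 replicate 1 or YTHDF3 replicate 2 or 3 (adjusted p 0.0523 to 0.146).

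Srsf7, a splicing activator that also links mRNA to export, at chr17:80200080-80207307, lay at 43.6, 42.1 and 47.9 CPM in Input and at 14.3, 37.6 and 11.6 in YTHDF1 RIP. Its YTHDF1 libraries were all below Input, with replicate 2 nearest to it. The log2 fold change was -1.07 ± 0.38 (adjusted p = 0.0306), and -1.85 without replicate 2 (adjusted p = 0.000129). Without Input replicate 1 or 2 or YTHDF1 replicate 1 or 3 it was -1.09, -1.11, -0.86 and -0.89 and not called (adjusted p 0.0555 to 0.103). Srsf2, a core splicing factor of exonic enhancers, fell to 24.3, 45.2 and 17.7 CPM from 48.5, 44.8 and 73.3 in Input, with 1 overlap between the groups. It was at -0.93 ± 0.34 (adjusted p = 0.0355), at -1.47 without YTHDF1 replicate 2, and not called without Input replicate 3 or YTHDF1 replicate 1 or 3 (adjusted p 0.0703 to 0.104). Srsf11, a distant relative that works near the 3′ splice site, lay at 82.2, 82.4 and 78.7 CPM in Input and 54.7, 66.4 and 42 in YTHDF1 RIP, without overlap (-0.58 ± 0.19, adjusted p = 0.0206). Its adjusted p was 0.0549 without Input replicate 2.

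Without YTHDF1 replicate 2, 12 members were called lower in YTHDF1 RIP in place of 4, namely 8 SR genes and 4 hnRNP genes, and 7 were higher. Of the 16820 genes tested, 5097 were lower and 4524 higher in that fit. The added SR genes were Srsf1 (-1.32), Srsf3 (-1.48), Srsf6 (-1.29) and Srsf10 (-0.79), and the added hnRNP genes Hnrnpab (-1.20), Hnrnpc (-0.85), Hnrnpdl (-0.97) and Hnrnph1 (-0.77). Over the 11 SR genes the median became -1.29, and over the 20 hnRNP genes -0.15, beside -0.07 over all genes tested. Srsf10 showed the widest gap, at 18.4 and 34.1 CPM in YTHDF1 replicates 1 and 3 but 175 in replicate 2, around 37.3 to 50.8 in Input. The same omission gave 9 members higher and 2 lower in YTHDF2 RIP, and 9 higher and 4 lower in YTHDF3 RIP. Of all genes tested, 3058 were then higher and 3852 lower in YTHDF2 RIP, and 3638 higher and 4049 lower in YTHDF3 RIP. The cause of these moves was not tested.

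**Figure D3:**
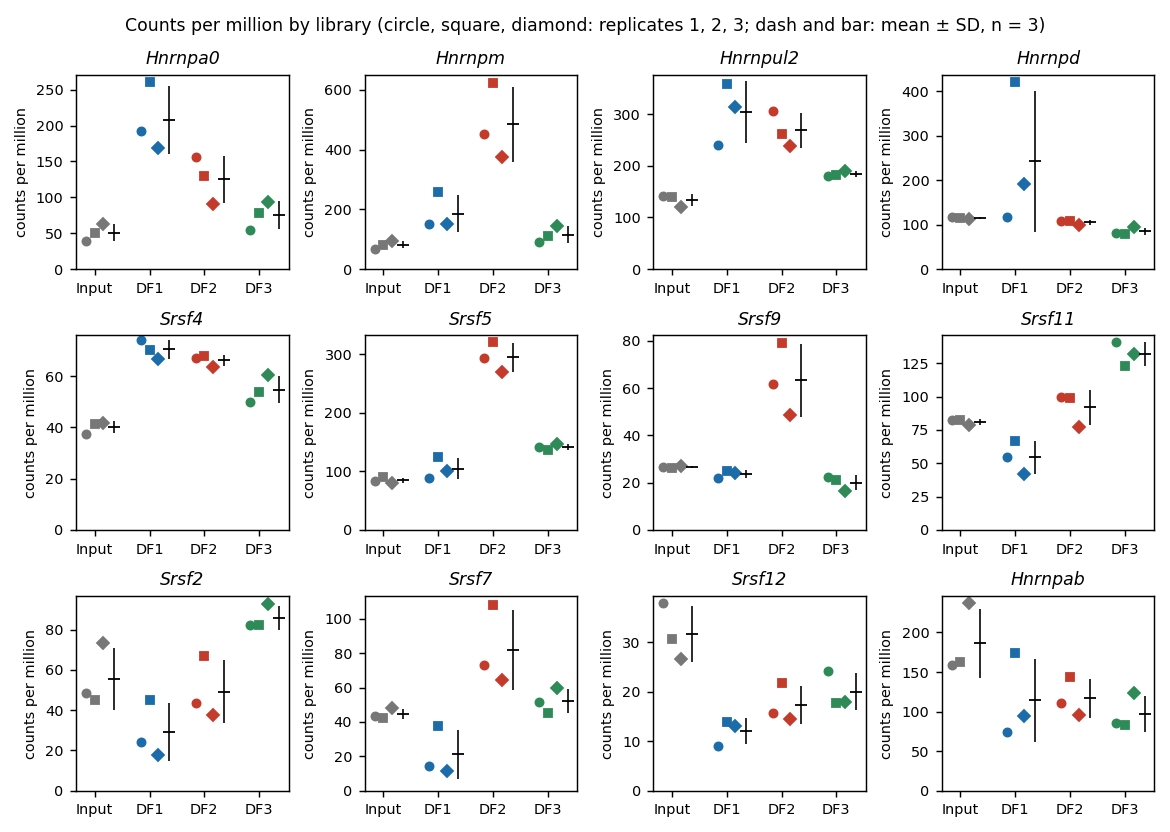
CPM on the vertical axis for 12 named genes in Input and in YTHDF1, YTHDF2 and YTHDF3 RIP (DF1, DF2, DF3) on the horizontal axis, with a circle, a square and a diamond for replicates 1, 2 and 3 and a dash with a bar for mean ± SD (n = 3). Srsf5 and Hnrnpm stand high in the 3 YTHDF2 libraries, and for Hnrnpd the square of YTHDF1 replicate 2 at 421 CPM is far above the other libraries.

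Srsf4 was the sole member called higher in all 3 RIPs in the fit of the 12 libraries, as 8.63% of all genes and 10.1% of protein-coding genes were. With the replicate block in the YTHDF3 comparison, Hnrnpa0, Hnrnpll, Hnrnpm and Hnrnpul2 were higher there too. Srsf4 encodes the longest-tailed of the classical SR proteins, and its levels were 37.6, 41.3 and 41.8 CPM in Input, 74.1, 70.3 and 66.9 in YTHDF1 RIP, 67, 67.9 and 63.5 in YTHDF2 RIP and 49.8, 54 and 60.3 in YTHDF3 RIP, and no RIP library overlapped Input. The log2 fold changes were 0.81 ± 0.14 (adjusted p = 0.000514), 0.72 ± 0.14 (adjusted p = 0.00234) and 0.44 ± 0.14 (adjusted p = 0.0225). The last call was lost without Input replicate 1 or 2 or YTHDF3 replicate 2 or 3, with adjusted p from 0.057 to 0.0906.

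In YTHDF2 RIP the SR genes Srsf5 and Srsf9 joined Hnrnpm among the most enriched members. Srsf5, a close relative of Srsf4 and Srsf6 whose RNA level answers to growth signals, lies at chr12:80945504-80950507. It was at 83.1, 89.5 and 80.7 CPM in Input, 88.9, 125 and 100 in YTHDF1 RIP, 294, 320 and 270 in YTHDF2 RIP and 142, 137 and 146 in YTHDF3 RIP. The YTHDF2 libraries were above all others and the YTHDF3 libraries above Input, while 1 of the YTHDF1 libraries lay within the Input range. Its log2 fold change was 1.80 ± 0.17 in YTHDF2 RIP (adjusted p = 0.000183), 0.75 ± 0.16 in YTHDF3 RIP (adjusted p = 0.00353) and 0.31 ± 0.16 in YTHDF1 RIP (adjusted p = 0.128). Gm12966, which shares words with it, was at 1.65, 0.49 and 0.64 in the same order. Srsf9, whose protein resembles Srsf1, lay at 26.5, 26.1 and 27.2 CPM in Input and rose to 61.9, 79.2 and 48.7 in YTHDF2 RIP (1.25 ± 0.20, adjusted p = 0.000826). It was called in neither of the other RIPs (-0.16 and -0.41). Srsf6, another close relative of Srsf5, was at -0.68, -0.27 and 0.09 and not called.

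In YTHDF3 RIP the changes were smaller, and the members lay between log2 fold changes of -0.94 and 0.75. Srsf11 was at 141, 123 and 132 CPM, above every Input library (0.70 ± 0.18, adjusted p = 0.0103). It was the sole member called in opposite directions in 2 RIPs, lower in YTHDF1 and higher in YTHDF3. With the length trend removed Srsf11 was at 0.26 in YTHDF3 RIP and not called (adjusted p = 0.38). Hnrnpab fell from 159, 163 and 237 CPM in Input to 85.7, 82.9 and 123 (-0.94 ± 0.32, adjusted p = 0.0343). Its call was lost without Input replicate 2 or 3 or YTHDF3 replicate 1 or 2 (adjusted p 0.0517 to 0.14). It lay at -0.70 in YTHDF1 RIP and -0.67 in YTHDF2 RIP, where it was not called.

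Replicate numbers tied the YTHDF3 libraries to the Input libraries. Deviations of same-numbered libraries from their group means correlated at 0.539 to 0.835 over all genes, and each library correlated best with its own number. Fitted on those 6 libraries with the replicate number as a block, the YTHDF3 comparison called 11 members higher and 7 lower in place of 3 and 2. Higher were Srsf2 (0.71), Srsf4 (0.50), Srsf5 (0.80), Srsf11 (0.76), Hnrnpa0 (0.63), Hnrnpdl (0.60), Hnrnpll (0.58), Hnrnpm (0.55), Hnrnpr (0.58), Hnrnpu (0.59) and Hnrnpul2 (0.51). Lower were Srsf9 (-0.36), Srsf10 (-0.68), Srsf12 (-0.61), Hnrnpa1 (-0.53), Hnrnpab (-0.88), Hnrnpc (-0.50) and Hnrnpd (-0.39). In that fit 6144 genes of all tested were higher and 5436 lower. For YTHDF1 against Input same-numbered libraries did not pair (correlations -0.329 to 0.09), and the same fit gave 3 members higher and 2 lower. YTHDF1 replicate 2 correlated at 0.471 with an Input library of another number, and YTHDF2 replicate 2 at 0.568. Same-numbered libraries of YTHDF1 and YTHDF2 RIP correlated at 0.07, 0.553 and 0.361 for replicates 1, 2 and 3. Whether the numbers follow the lysates in YTHDF1 and YTHDF2 RIP was not tested.

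The RIPs were next compared with each other. Input was in none of these contrasts, though its libraries entered the scaling and the shared estimate of the spread. A test of any difference among the 3 RIPs called 11 members, 5 SR and 6 hnRNP genes. That was 35.5%, beside 32.8% of all genes and 32.7% of protein-coding genes. Between pairs, a gene was called at a difference of at least 2-fold. Srsf7, Srsf5, Srsf9, Hnrnpm and Hnrnpdl were lower in YTHDF1 than in YTHDF2 RIP and Hnrnpd was higher, where 6.13% of all genes were lower and 11.4% higher (protein-coding 5.45% and 11.4%). Srsf2, Srsf7, Srsf11 and Hnrnpdl were lower in YTHDF1 than in YTHDF3 RIP and Hnrnpd and Hnrnpa0 were higher, where 3.62% and 11% were (protein-coding 3.06% and 9.35%). Hnrnpm, Srsf9 and Srsf5 were higher in YTHDF2 than in YTHDF3 RIP, where 3.97% were and 1.17% were lower (protein-coding 2.72% and 1.34%), and the other 28 members were not called.

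Largest of these was Hnrnpm, at 2.07 ± 0.29 between YTHDF2 and YTHDF3 RIP (adjusted p = 0.00394) and -1.38 ± 0.28 between YTHDF1 and YTHDF2 RIP (adjusted p = 0.00398). Srsf7 was at 73.1, 108 and 64.5 CPM in YTHDF2 RIP and 51.8, 45.2 and 59.5 in YTHDF3 RIP, all above its YTHDF1 libraries. The differences of YTHDF1 from the others were -1.95 ± 0.38 (adjusted p = 0.0031) and -1.30 ± 0.38 (adjusted p = 0.0286). The latter was -2.13 without YTHDF1 replicate 2, and was not called without YTHDF1 replicate 1 or any 1 YTHDF3 library (adjusted p 0.0557 to 0.0851). Srsf2, at 82, 82.2 and 92.6 CPM in YTHDF3 RIP, differed between YTHDF1 and YTHDF3 RIP by -1.56 ± 0.34 (adjusted p = 0.00767), and Srsf11 by -1.28 ± 0.19 (adjusted p = 8e-04).

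Srsf5 differed by -1.49 ± 0.16 between YTHDF1 and YTHDF2 RIP (adjusted p = 9.65e-05). Between YTHDF2 and YTHDF3 RIP it stood at 1.06 ± 0.16 (adjusted p = 0.00577), and fell just under 2-fold, at 0.99 to 1.00, without Input replicate 3, YTHDF1 replicate 2 or 3, or YTHDF2 replicate 2. For Srsf9, with 22.3, 21.1 and 16.5 CPM in YTHDF3 RIP and 22, 25 and 24.2 in YTHDF1 RIP, the differences were 1.66 ± 0.20 (YTHDF2 against YTHDF3, adjusted p = 0.00177) and -1.41 ± 0.20 (YTHDF1 against YTHDF2, adjusted p = 0.000353). Hnrnpdl, a relative of Hnrnpd, was at 59.6, 95.5 and 46.4 CPM in YTHDF1 RIP, 151, 183 and 141 in YTHDF2 RIP and 140, 128 and 167 in YTHDF3 RIP. Its YTHDF1 libraries lay below the others by -1.24 ± 0.26 (adjusted p = 0.00401) and -1.11 ± 0.25 (adjusted p = 0.0095), although it was called against Input in no RIP.

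Hnrnpd moved the opposite way to Hnrnpdl, at 109, 109 and 99.4 CPM in YTHDF2 RIP and 81.8, 78.3 and 93.8 in YTHDF3 RIP. It was higher in YTHDF1 than in YTHDF2 RIP by 1.20 ± 0.35 (adjusted p = 0.0263) and than in YTHDF3 RIP by 1.52 ± 0.36 (adjusted p = 0.0105). Without YTHDF1 replicate 2 these became 0.48 and 0.74, neither called, and the former was not called without any 1 YTHDF2 library (adjusted p 0.0719 to 0.0767). Hnrnpa0 was higher in YTHDF1 than in YTHDF3 RIP by 1.46 ± 0.28 (adjusted p = 0.00374). Without YTHDF1 replicate 2, 10 members were lower in YTHDF1 than in YTHDF2 RIP in place of 5, and 7 lower than in YTHDF3 RIP in place of 4. Of the 16820 genes tested, 1945 in place of 1031 were lower in the former comparison and 1001 in place of 609 in the latter.

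**Figure D4:**
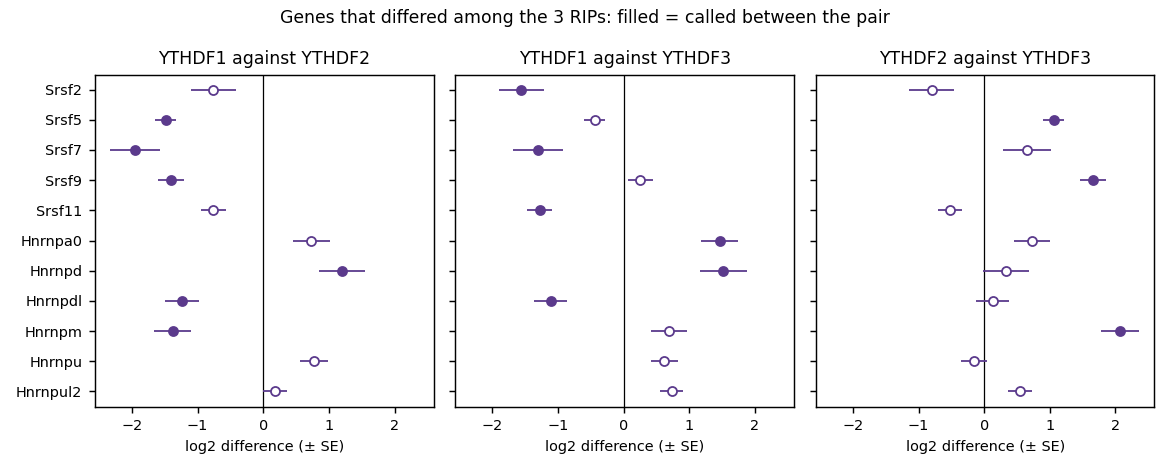
Log2 differences between pairs of RIPs (horizontal axis, points, with bars for the standard error, 3 libraries against 3) for the 11 genes that differed among the RIPs (vertical axis). Filled points were called at 2-fold: 6 in YTHDF1 against YTHDF2, 6 in YTHDF1 against YTHDF3 and 3 in YTHDF2 against YTHDF3 RIP.

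Several proteins of these families are known as partners of m6A in the nucleus, among them Srsf3 and Srsf10, which bind the reader YTHDC1, and Hnrnpa2b1 and Hnrnpc, which bind methylated RNA or RNA unfolded by the mark. In the fit of the 12 libraries the 4 genes were not called against Input or between RIPs. With the replicate block, Srsf10 (-0.68) and Hnrnpc (-0.50) were lower in YTHDF3 RIP. Without YTHDF1 replicate 2, Srsf3 (-1.48), Srsf10 (-0.79) and Hnrnpc (-0.85) were lower in YTHDF1 RIP than in Input, and Srsf3 was lower there than in YTHDF2 (-1.88) and YTHDF3 RIP (-1.58). Srsf3 lay at 44.2, 51.7 and 72.1 CPM in Input, 21.6, 58.2 and 20.3 in YTHDF1 RIP, 73, 105 and 45.6 in YTHDF2 RIP and 52.7, 49.8 and 70.4 in YTHDF3 RIP (log2 fold changes -0.74, 0.41 and 0.04). Srsf10 was at 44.8, 49 and 43.5 in YTHDF2 RIP and 26.1, 22.7 and 29.6 in YTHDF3 RIP, the last all below Input (0.80, 0.07 and -0.74).
Hnrnpa2b1 was at 198, 229 and 277 in Input, 171, 452 and 279 in YTHDF1 RIP, 336, 409 and 274 in YTHDF2 RIP and 176, 207 and 269 in YTHDF3 RIP, overlapping Input throughout (0.36, 0.53 and -0.11). Hnrnpc was at 90.1, 103 and 112 in Input, 49.4, 94.8 and 69 in YTHDF1 RIP, 97, 103 and 84.4 in YTHDF2 RIP and 61.4, 64.2 and 82.9 in YTHDF3 RIP (-0.51, -0.10 and -0.55). The YTHDF3 libraries of Hnrnpc lay below Input, with an adjusted p of 0.0772.

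The F/H group, whose proteins bind runs of G, was called in no RIP. In YTHDF1, YTHDF2 and YTHDF3 RIP, Hnrnpf was at 0.00, -0.35 and -0.24, Hnrnph1 at -0.10, 0.19 and 0.00, Hnrnph2 at 0.45, -0.24 and -0.11 and Hnrnph3 at 0.30, 0.46 and 0.14. Hnrnpk, which binds C-rich RNA, was at 0.14, 0.23 and -0.16, and Hnrnpl, which binds CA repeats, at 0.35, 0.24 and -0.05. Srsf1, the founding SR protein, was at -0.51, 0.11 and -0.25. The remaining values of the A/B and D groups were -0.05 and -0.57 for Hnrnpa1 in YTHDF1 and YTHDF3 RIP, 0.33 and -0.16 for Hnrnpa3, and -0.57, 0.67 and 0.54 for Hnrnpdl in the 3 RIPs. Standard errors of these 10 genes against Input ran from 0.24 to 0.44, and with 3 libraries a group a p above the threshold does not show that a level was equal to Input. An exact test of a single gene on 3 against 3 libraries cannot give a p below 0.1. Called members had further values that did not pass: -0.18 and 0.63 for Srsf2 in YTHDF2 and YTHDF3 RIP, 0.88 and 0.23 for Srsf7, -0.12 and -0.44 for Hnrnpd, and 0.35 and 0.53 for Hnrnpr. Hnrnpll was at 0.52 in YTHDF3 RIP and Srsf11 at 0.18 in YTHDF2 RIP.

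Log2 fold changes rose with exonic length over all genes, and the families had different median lengths. Median exonic length was 3988 bases for the SR genes, 5897.5 for the hnRNP genes and 4652.5 for the protein-coding genes tested. The median coding length of the principal transcripts was 747, 1306.5 and 1431 bases in the same order. Spearman's rho between exonic length and log2 fold change was 0.463, 0.384 and 0.528 over the 16820 genes in YTHDF1, YTHDF2 and YTHDF3 RIP, and 0.414, 0.098 and 0.253 over the 31 members. With coding length the members gave 0.552, 0.143 and 0.341, beside 0.618, 0.580 and 0.677 over 13243 protein-coding genes. With the trend on exonic length removed, 4 members in place of 8 were called higher in YTHDF1 RIP, namely Hnrnpa0 (2.36), Hnrnpul2 (0.70), Srsf4 (0.93) and Srsf9 (0.50). Lower were Hnrnpdl (-0.72), Hnrnpul1 (-0.66), Srsf3 (-1.30), Srsf11 (-1.19) and Srsf12 (-1.17). In YTHDF2 RIP that fit called Hnrnpa0 (1.48), Hnrnpm (2.26), Hnrnpul2 (0.72), Srsf4 (0.73), Srsf5 (1.75) and Srsf9 (1.68) higher and Srsf12 (-0.79) lower. In YTHDF3 RIP it called Hnrnpa0 (0.87), Srsf4 (0.53) and Srsf5 (0.74) higher, while Srsf11, Srsf12 and Hnrnpab were no longer called.

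**Figure D5:**
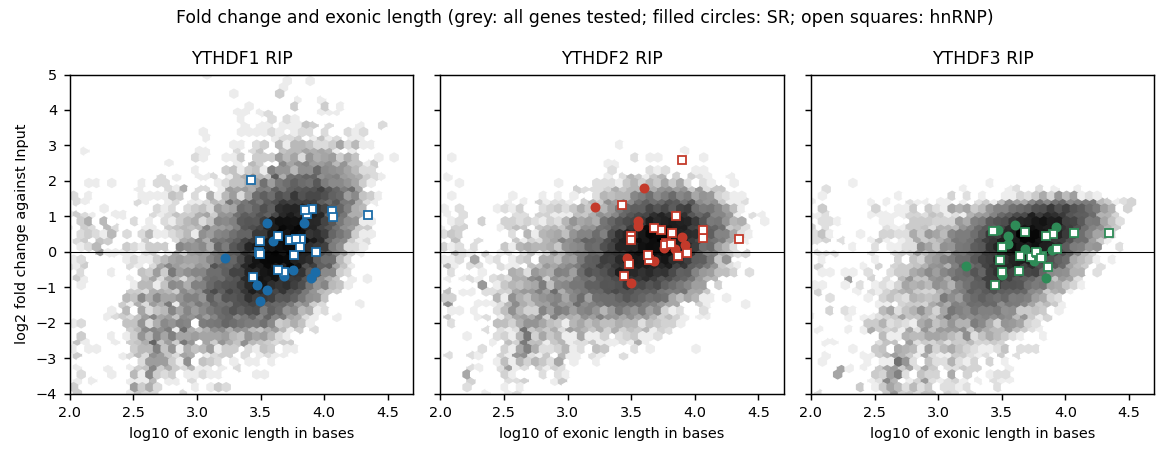
Log2 fold change against Input (vertical axis) and log10 of exonic length in bases (horizontal axis) in YTHDF1, YTHDF2 and YTHDF3 RIP, with all 16820 genes tested in grey (darker for more genes, log scale; points outside the axes are not drawn) and the members as filled circles (SR) and open squares (hnRNP). Fold changes of all genes rise with length (Spearman's rho 0.463, 0.384 and 0.528), and Hnrnpr, at 22199 bases, is the member farthest right.

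Genes that work with these families were counted from 2 further lists, beside which 27.5% of all genes were higher and 26.1% lower in YTHDF1 RIP, 16.1% and 19.3% in YTHDF2 RIP and 16.7% and 23.2% in YTHDF3 RIP. Of 29 SR-related proteins, kinases and importers tested, 11 were higher and 7 lower in YTHDF1 RIP (median log2 fold change 0.44), 15 were higher in YTHDF2 RIP (median 0.73, the other 14 not called) and 11 were higher and 1 lower in YTHDF3 RIP (median 0.49). The large scaffolds of nuclear speckles Son and Srrm2 were higher in each RIP, Son at 2.31, 1.35 and 1.33 and Srrm2 at 1.78, 1.15 and 1.44. Srpk1, which phosphorylates SR proteins, was higher in YTHDF1 (1.26) and YTHDF2 RIP (0.73), and the small SR-like activators Tra2a and Tra2b were lower in YTHDF1 RIP, at -1.34 and -1.27. The kinase gene Clk4 was lower in YTHDF1 RIP (-1.39) and Clk3 higher in YTHDF2 RIP (1.85). Of 25 hnRNPs and related proteins under other symbols, 5 were higher and 6 lower in YTHDF1 RIP (median 0.17), 4 and 4 in YTHDF2 RIP (median -0.33), and 6 were lower in YTHDF3 RIP with 19 not called (median -0.24). Ptbp3 was highest in YTHDF1 RIP at 2.81, and Sfpq in YTHDF2 RIP at 1.57, whereas the poly(C)-binding Pcbp2 was lower in each RIP, at -1.11, -1.23 and -1.22.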

How the data were processed

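RNA of 12 libraries (Input and YTHDF1, YTHDF2 and YTHDF3 RIP, 3 replicates each) was sequenced by the study from a stranded total RNA kit with unique molecular identifiers. The authors deposited raw read counts per gene, made on GRCm38 with Ensembl genes. The submitters' processing notes list cutadapt 3.4, UMI-tools 1.1.1, STAR 2.7.7a, featureCounts 2.0.1 and DESeq2. Reads mapped to several genes were counted for each, so shared sequence raises counts. The deposited result tables of the authors hold fold changes and p-values, which were not used. Only their symbols and gene types were.

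Genes were kept where their normalized count averaged 10 or more (16820, of which 13390 are protein-coding) and scaled by TMM. edgeR 4.0.16 in R 4.3.3 fitted all 4 groups together with its quasi-likelihood F test, and p-values were adjusted by Benjamini-Hochberg over all genes tested. Calls needed a fold change of 1.25 against Input or 2 between RIPs, and an adjusted p of at most 0.05. All adjusted p-values given come from this test unless another tool is named. The code was tested on simulated data. Figures were drawn with matplotlib 3.10.9. Motifs, lengths and shared words came from GENCODE M21 transcripts. Protein sequences were not used here.

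The members and lists were chosen with earlier results of these data known. Every member is named with its fold changes. Values per library are given for the 3 members highest and the 3 lowest among those called against Input without overlap of libraries, for the 2 largest differences each way between RIPs, and for Srsf3, Srsf10, Hnrnpa2b1 and Hnrnpc. Those of Hnrnpdl and the range of Hnrnpu were added after their values were seen. In the alternatives, another scaling, filter or tool, the compared groups alone, a replicate block, the length trend removed and each library left out were tried. Same-numbered libraries of YTHDF3 RIP and Input deviated together (correlations of 0.539 to 0.835), and those of no other comparison did so in all 3 pairs. The methods of the study describe a lysate split between the RIPs and 1 Input. The replicates are samples of separate lysates, while the Input and RIPs of the same replicate share a lysate by those methods. The main fit held no block for this, and its p-values measure the spread between libraries of a group.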

Additional observations from a re-analysis of the deposited data

Results flagged for a closer look

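For 9 genes the level differed between RIPs, by the edgeR test of the difference itself, in 15 pairs of a gene and a RIP comparison. Each RIP used its own antibody, so a difference between antibodies cannot be told apart from one between YTHDF proteins. As log2 differences between YTHDF1 and YTHDF2 RIP these were 1.20 for Hnrnpd, -1.24 for Hnrnpdl, -1.38 for Hnrnpm, -1.41 for Srsf9, -1.49 for Srsf5 and -1.95 for Srsf7. Between YTHDF1 and YTHDF3 RIP they were 1.52 for Hnrnpd, 1.46 for Hnrnpa0, -1.11 for Hnrnpdl, -1.28 for Srsf11, -1.30 for Srsf7 and -1.56 for Srsf2. Between YTHDF2 and YTHDF3 RIP they were 2.07 for Hnrnpm, 1.66 for Srsf9 and 1.06 for Srsf5. Without YTHDF1 replicate 2 the values of Hnrnpd were 0.48 and 0.74, under 2-fold. Of the 23 alternatives, 14 kept the call of Srsf5 between YTHDF2 and YTHDF3 RIP, and 17 that of Srsf7 between YTHDF1 and YTHDF3 RIP. The calls of Hnrnpd were kept in 14 and 19, and the remaining calls in 21 or more.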

How the results depend on the processing

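Counts of members called moved by over 1.5 times under some alternatives, and the cause was not tested. In YTHDF1 RIP, 8 higher became 5 with library size alone, 3 with the compared groups alone and the replicate block, 4 with the length trend removed and 3 with that and the block. The 4 lower there became 7 with DESeq2, with TMM over protein-coding genes and with a mean count of at least 50, 2 with the compared groups and the block, and 11 with library size alone. In YTHDF2 RIP 1 lower became 2 with the compared groups alone. In YTHDF3 RIP 3 higher became 6 with DESeq2 or its size factors, 5 with a mean count of at least 50, 9 with the compared groups alone, and 11 with the block added or with library size alone. The 2 lower there became 7 with the compared groups and the block, 1 with no filter or with the block over all libraries, and 0 with library size alone or the length trend removed, with and without the block. Between YTHDF1 and YTHDF2 RIP, 1 higher became 0 with library size alone, the compared groups alone and the length trend removed, the last 2 also with the block, and 5 lower became 10 with library size alone. Between YTHDF1 and YTHDF3 RIP, 2 higher became 1 with the compared groups alone and 0 with the block added or library size alone, and 4 lower became 0 and 9 under those last 2. Between YTHDF2 and YTHDF3 RIP, 0 lower became 1 with no filter. Leaving out each library gave 7 to 10 higher and 2 to 12 lower in YTHDF1 RIP, 6 to 9 and 0 to 2 in YTHDF2 RIP, and 2 to 9 and 0 to 4 in YTHDF3 RIP. It gave 0 to 1 higher and 5 to 10 lower between YTHDF1 and YTHDF2 RIP, 1 to 3 and 3 to 7 between YTHDF1 and YTHDF3 RIP, 2 to 3 higher between YTHDF2 and YTHDF3 RIP, and 9 to 15 differing among RIPs. The 12 lower, 10 lower and 7 lower were found without YTHDF1 replicate 2, where 5097, 1945 and 1001 of all genes tested were lower. Hnrnpr turned from 1.04 to -0.57 in YTHDF1 RIP with the length trend removed, and to -0.62 with the block added, when Hnrnpll came to -0.01. Of the other values for single genes, 807 kept their direction and side of the threshold and 110 lost the call. With the block, no count in YTHDF2 RIP moved by over 1.5 times.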

Other observations

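The 3 pseudogenes whose symbols begin like those of the members and that passed the filter were not called against Input by edgeR in the RIPs. Srsf3-ps lay at -0.46, 0.20 and -0.10 on the log2 scale in YTHDF1, YTHDF2 and YTHDF3 RIP, Hnrnpa1l2-ps at 0.93, 0.25 and -0.53, and Hnrnpa1l2-ps2 at -0.14, 0.11 and -0.78.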
